A study of Mus musculus with 20 samples.

Results

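Transcription factors of the hypothalamic arcuate nucleus (ARC) and of the nuclei around it were described in laser-captured ARC of mice given corticosterone (Cort). They were 10 of the 22048 genes in the count tables, found by symbol. Tbx3, Isl1, Nkx2-1, Bsx, Prdm12 and Dlx1 stood for the ARC, and Nr5a1, Fezf1, Sim1 and Sox14 for neighbouring nuclei. The rule that chose them was a list of symbols and used no measured level, although earlier results of these data were known.

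Male C57BL6/J mice, labelled as 10 weeks old and housed for a baseline period before treatment, drank either vehicle, which was 1% ethanol, or Cort at 75 µg/ml in the same vehicle. The first dataset followed 2 days of treatment. The other followed 4 weeks, and there both the vehicle and the Cort mice were also fasted for 16 hours and refed for 24 hours before cull, with treatment continued. Each dataset held 5 vehicle and 5 Cort samples (C01 to C10), of which the study left out 2 vehicle and 1 Cort sample as outliers on principal components, so that 3 vehicle and 4 Cort samples were kept. The columns of the counts carry barcodes only, and each barcode was placed in its treatment group by the sample list of the study. In the 2 day dataset vehicle samples C07 and C09 and Cort sample C08 were left out. In the 4 week dataset these were vehicle samples C01 and C05 and Cort sample C06. Section thickness, laser system and sequencer also differed between the datasets, so none of these, fasting or time can be told apart. A 2 day library held between 2487063 and 5748223 counts, and a 4 week library between 1065776 and 5196364. Levels are given as CPM, the counts of a gene divided by the library total and scaled by TMM over the 10 samples of a dataset, and 3 counts corresponded to between 0.512 and 1.19 CPM in 2 day libraries and between 0.619 and 2.75 CPM in 4 week libraries. In dissected tissue, fewer cells of a type and less RNA per cell cannot be told apart.

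The ARC holds the Agrp/Npy and Pomc neurons that control feeding. Their identity is set and kept by homeodomain, T-box and zinc finger proteins, several of which act directly on the peptide genes. Nkx2-1 patterns the ventral hypothalamus, Isl1 is a LIM homeodomain activator of Pomc, and Tbx3 is a T-box factor that maintains peptide expression in both neuron types. Bsx is a homeodomain factor needed for normal Npy and Agrp expression, Prdm12 is a zinc finger protein required for Pomc expression, and Dlx1 is a homeodomain factor of GABAergic neurons. Nr5a1 (SF-1) defines the ventromedial nucleus, where Fezf1 is also expressed, and Sim1 is a bHLH-PAS factor needed for the paraventricular and supraoptic nuclei. Sox14 is a repressor of the SOX family that marks groups of GABAergic neurons in the diencephalon.

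Cort acts through nuclear receptors that bind the 6 bases AGAACA, and several of the 10 factors bind short motifs that could occur near the other members. For this reason the 250 bases before the RefSeq start were searched in the 8 members with an entry (GRCm38.p6, all but Tbx3 and Nr5a1). Sox14 is shown because its counts in the kept groups did not overlap at 4 weeks, which is not read as a result. Isl1 is shown for a match to the receptor bases, and Bsx and Dlx1 because both hold an NKX2 core (CTCAAG). Capitals mark the matches, and each sequence reads 5′ to 3′ towards the gene.
Sox14 (chr9:99876171-99876420, minus strand): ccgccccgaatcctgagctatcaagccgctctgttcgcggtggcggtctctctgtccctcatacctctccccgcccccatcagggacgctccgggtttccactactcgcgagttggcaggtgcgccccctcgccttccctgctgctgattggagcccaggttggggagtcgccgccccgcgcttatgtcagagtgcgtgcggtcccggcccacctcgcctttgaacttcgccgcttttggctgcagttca
Isl1 (chr13:116309689-116309938, minus strand): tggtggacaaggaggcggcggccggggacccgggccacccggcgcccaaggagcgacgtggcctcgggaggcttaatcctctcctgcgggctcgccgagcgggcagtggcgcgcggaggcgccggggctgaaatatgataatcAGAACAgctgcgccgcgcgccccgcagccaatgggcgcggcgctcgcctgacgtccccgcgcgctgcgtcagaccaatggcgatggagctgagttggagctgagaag
Bsx (chr9:40873877-40874126, plus strand): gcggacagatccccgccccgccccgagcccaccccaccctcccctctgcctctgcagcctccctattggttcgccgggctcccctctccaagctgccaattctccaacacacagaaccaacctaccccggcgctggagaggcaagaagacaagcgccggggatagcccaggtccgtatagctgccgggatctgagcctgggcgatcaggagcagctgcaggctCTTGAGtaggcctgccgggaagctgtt
Dlx1 (chr2:71529195-71529444, plus strand): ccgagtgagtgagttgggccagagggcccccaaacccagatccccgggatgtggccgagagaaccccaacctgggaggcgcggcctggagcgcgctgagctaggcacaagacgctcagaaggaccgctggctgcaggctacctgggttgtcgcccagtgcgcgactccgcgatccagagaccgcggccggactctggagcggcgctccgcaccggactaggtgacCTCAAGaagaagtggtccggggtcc
Both strands were searched, and a match describes letters, not a binding site. The receptor bases AGAACA (in reverse TGTTCT) stood 107 bases before the start of Isl1 and 195 bases before that of Sim1, in reverse, and 16.1% of the 32851 promoter windows of the same length hold it. No member held the palindromic glucocorticoid response element, which occurs in 0.00913% of windows. CTCAAG (reverse CTTGAG), held by 13.3% of windows, stood 27 bases before the start of Bsx, in reverse, and 25 bases before that of Dlx1. The SOX core AACAAT, held by 9.42% of windows, stood 114 bases before the start of Nkx2-1. None of the 8 held the homeodomain core TAATTA (4.84% of windows), the T-box bases GGTGTGA (3.33%), the NR5A element CAAGGTCA (1.33%) or the SIM element TACGTG (2.72%). The windows of Isl1 (71.2% G or C), Dlx1 (68%), Bsx and Sox14 (65.6% each) lay above the upper quartile of all windows (61.2%). That of Prdm12 (61.2%) lay at this quartile. Those of Nkx2-1 (50.8%), Fezf1 (47.6%) and Sim1 (45.6%) lay between the lower quartile and the median (45.2% and 52.4%).

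The genes lie on chromosomes 2, 5, 6, 9, 10, 12 and 13 of GRCm38, and no pair of members shares exons. In the GENCODE annotation 1.74% of the exon bases of Tbx3 (chr5:119670669-119684724) are shared with Tbx3os1, 8.09% of Prdm12 (chr2:31640037-31655795) with Gm13425 and 6.21% of Dlx1 (chr2:71528113-71533981) with Dlx1as, all on the opposite strand. The counting was not stated to use strand, so reads in these stretches cannot be assigned to either partner. Sox14 (chr9:99874106-99876170, minus strand) is a single exon of 2065 bases.

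All 6 ARC factors had counts in every 2 day sample, with Prdm12 at or under 3 counts in 2 of the 10, and the neighbour factors made up a small and variable part. Per kilobase of exon, the order of mean levels over the 7 kept samples was the same in both datasets, namely Tbx3, Isl1, Nkx2-1, Bsx, Dlx1, Sox14, Prdm12, Fezf1, Sim1 and Nr5a1. At 2 days these mean levels fell from 32.5 ± 5.53 CPM per kb (SD, n = 7) for Tbx3 through 16.4 ± 3.40 for Isl1 to 7.07 ± 3.01 for Sox14, 2.61 ± 2.31 for Prdm12 and 0.146 ± 0.211 for Nr5a1. At 4 weeks the same quantity was 22.3 ± 9.12 for Tbx3, 4.57 ± 5.95 for Sox14, 2.71 ± 2.96 for Prdm12 and 0.0104 ± 0.0274 for Nr5a1. Neighbours in this order overlapped in their ranges throughout. Tbx3 lay above Isl1 in 7 of 7 kept samples at 2 days and in 6 of 7 at 4 weeks. Isl1 lay above Nkx2-1 in only 4 of 7 in either dataset. At 2 days Sox14 did not sit with the other neighbour factors, since its level per kb exceeded that of the ARC factor Prdm12 in 7 of 7 kept samples. At 4 weeks it did so in 5 of 7, and its place in the order rested on the Cort samples. In the kept 4 week vehicle samples the mean was 0.260 CPM per kb for Sox14 and 3.79 for Prdm12. In the kept 4 week Cort samples these means were 7.81 and 1.89.

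**Figure D1:**
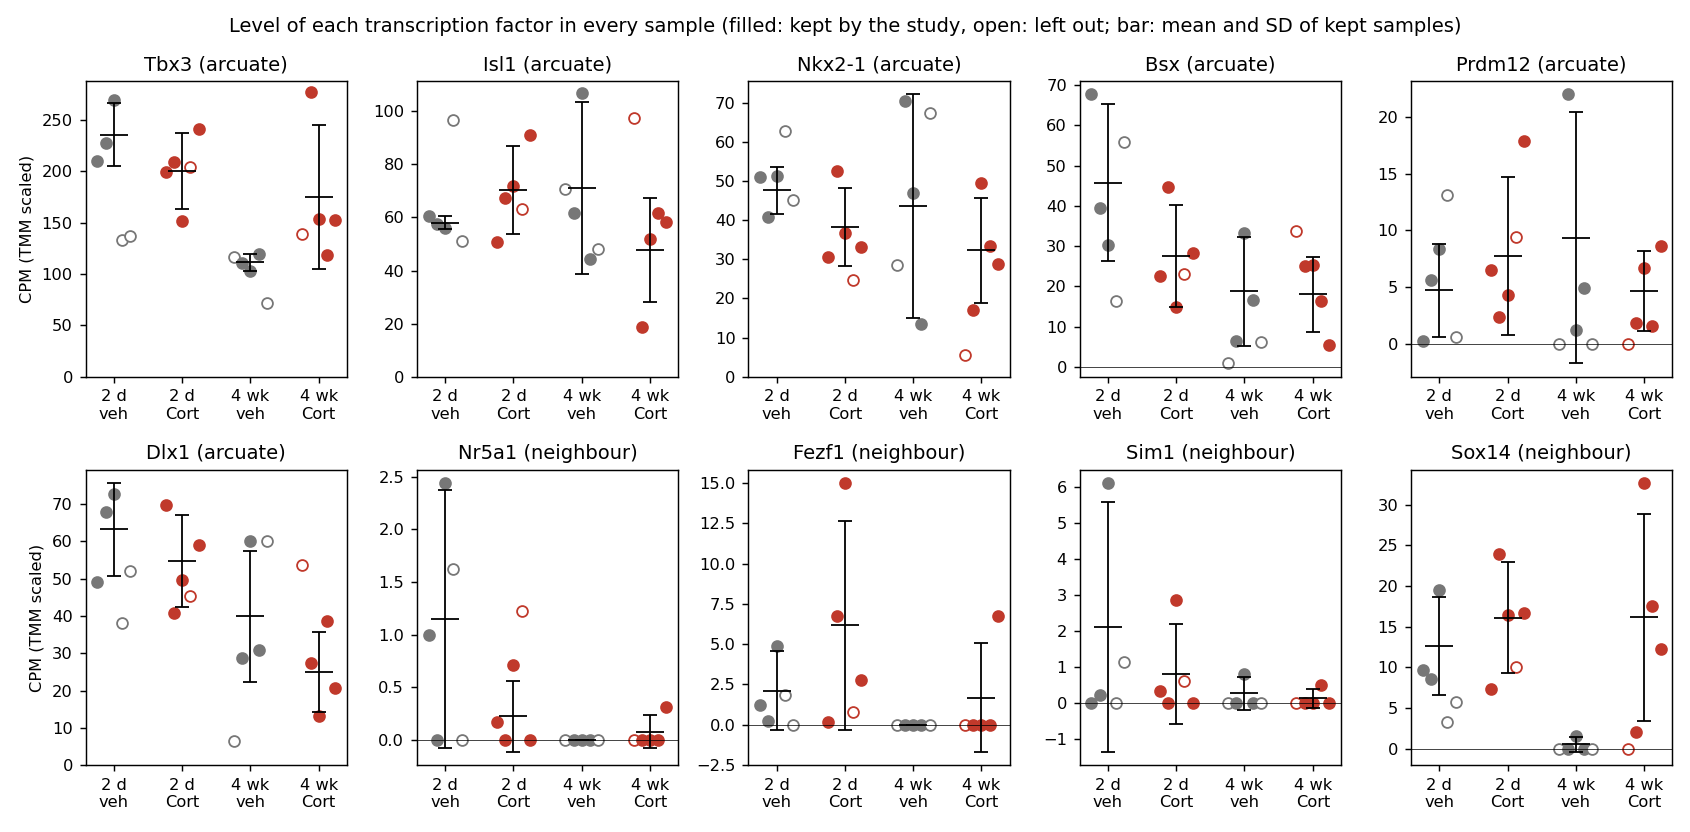
Level of each of the 10 factors in CPM (y axis, TMM scaled, own scale per panel) in every sample of the 4 groups, with filled points for kept samples, open points for samples left out by the study, and bars for the mean and SD of the kept samples. Tbx3 lies between 71.7 and 277 CPM, Nr5a1 never exceeds 2.44 CPM, and Sox14 is near 0 in the 4 week vehicle samples.

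Cort against vehicle was tested with edgeR's quasi-likelihood test over all genes that passed its count filter, with Benjamini-Hochberg adjustment and a call at adjusted p below 0.1. At 2 days 8 of the 10 factors passed the filter and 0 were called, beside 0.065% of the 12309 genes tested. No factor had an unadjusted p below 0.05, which 5.97% of all genes had, and no factor's groups were separate in the 7 kept samples, as they were in 6.63% of all genes (0.804% over all 10 samples). At 4 weeks 7 factors passed and 0 were called, beside 0.0446% of 11211 genes. Sox14 alone had an unadjusted p below 0.05 (4.91% of all genes) and groups that did not overlap in the kept samples (6.53%). It had passed the filter through its Cort samples only, so neither is read as a result. Over all 10 samples no factor's groups were separate (0.919% of genes). DESeq2 also called 0 of the factors in either dataset, beside 0.439% of genes at 2 days and 0.388% at 4 weeks. The median log2 fold change of the factors tested was 0.04 at 2 days and -0.45 at 4 weeks, and over all genes it was 0.02 and 0.04. The 4 week value is the median of 7 estimates, Sox14 among them, and is not read as a shift. Over all genes the median absolute log2 fold change was 0.26 at 2 days and 0.51 at 4 weeks.

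**Figure D2:**
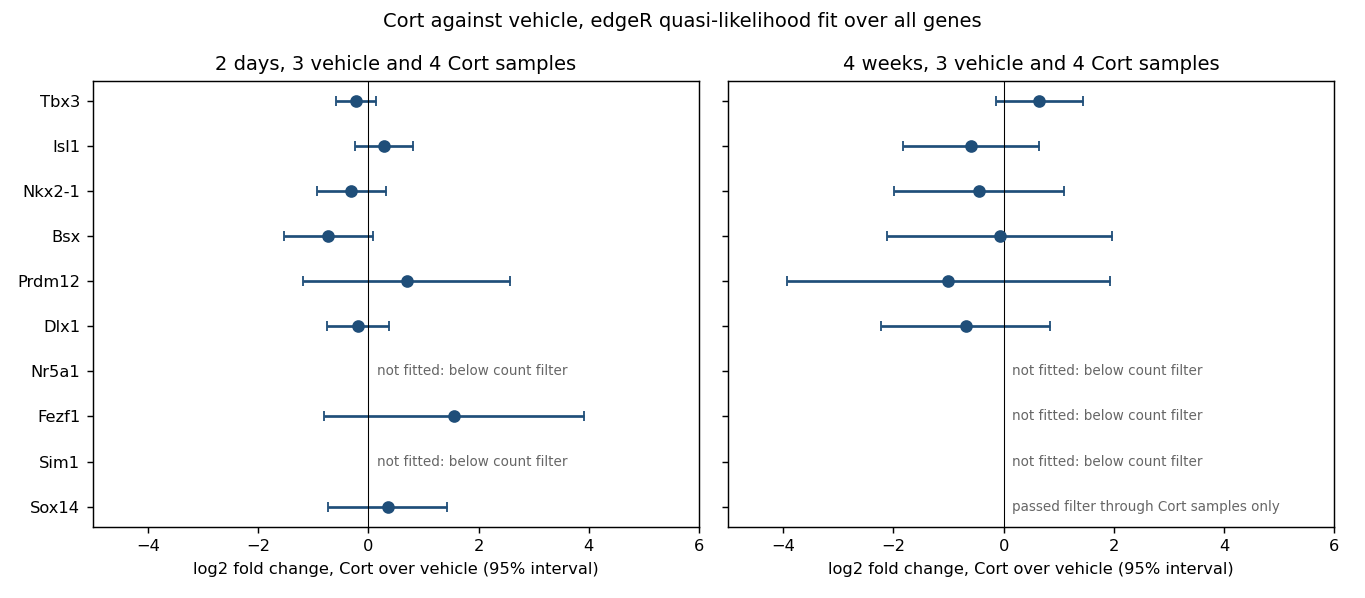
Log2 fold change of Cort over vehicle (x axis) with its 95% interval for each factor (y axis) at 2 days and at 4 weeks, from 3 vehicle and 4 Cort samples in each. Every interval shown includes 0 and intervals are wider at 4 weeks. No estimate is drawn for factors below the count filter or for Sox14 at 4 weeks, which passed it through Cort samples only. Fezf1 at 2 days, which is drawn, passed it mainly through Cort samples.

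Among the factors that act in both ARC feeding neuron types, Tbx3 was the most abundant member. At 2 days it measured 209.7, 228 and 269 CPM in the kept vehicle samples and 199.7, 209, 152 and 241 CPM in the kept Cort samples. The left-out vehicle samples C07 and C09 lay lower, at 133 and 137 CPM, and the left-out Cort sample at 204 CPM. The groups overlapped, and the log2 fold change was -0.23 (SE 0.171, 95% interval -0.58 to 0.13, adjusted p = 0.923). With all 10 samples the estimate was 0.051, and leaving out 1 kept sample at a time gave -0.33 to -0.11. At 4 weeks Tbx3 measured 111, 103 and 119.6 CPM in the kept vehicle samples and 277, 153, 118 and 152 CPM in the kept Cort samples C07 to C10. The left-out samples were at 117 and 71.7 CPM (vehicle) and 139 CPM (Cort). Only Cort sample C09 lay within the vehicle range, and the log2 fold change of 0.64 (SE 0.372, interval -0.15 to 1.43) did not pass (adjusted p = 0.990). Without Cort sample C07 it was 0.33.

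Nkx2-1, the patterning factor of the ventral hypothalamus, measured 51.0, 40.7 and 51.2 CPM with vehicle and 30.6, 52.5, 36.8 and 33.0 CPM with Cort in the kept samples at 2 days. The left-out samples reached 62.8 and 45.1 CPM with vehicle and 24.8 CPM with Cort. Cort sample C03 was the highest of the 7, so the groups overlapped, and the log2 fold change was -0.31 (SE 0.300, adjusted p = 0.941), or -0.50 without C03. The spread within groups was larger at 4 weeks, with 70.3, 47.0 and 13.4 CPM in kept vehicle samples and 17.1, 49.5, 33.5 and 28.9 CPM in kept Cort samples. The left-out samples were at 28.5 and 67.5 CPM with vehicle and at 5.67 CPM with Cort. The log2 fold change was -0.45 (SE 0.725, interval -1.99 to 1.09, adjusted p = 0.990), and it became 0.10 without vehicle sample C02.

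Isl1 and Prdm12, both required for Pomc expression, showed no call in either dataset. Isl1 was even in the kept 2 day vehicle samples, at 60.7, 57.3 and 56.1 CPM, and measured 50.9, 67.4, 71.8 and 91.1 CPM in the kept Cort samples. Its log2 fold change was 0.28 (SE 0.254, adjusted p = 0.933) and 0.13 without Cort sample C10, and the left-out vehicle sample C07 held more than any of these, at 96.8 CPM. At 4 weeks Isl1 measured 61.5, 107 and 44.3 CPM with vehicle and 18.8, 51.9, 61.8 and 58.1 CPM with Cort. Cort sample C07, the lowest for Isl1, was the highest for Tbx3. The left-out samples lay at 70.7 and 48.2 CPM with vehicle and 97.3 CPM with Cort, and the log2 fold change over kept samples was -0.59 (SE 0.583, adjusted p = 0.990). It shrank to -0.16 without vehicle sample C03 and to -0.32 without Cort sample C07.

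Prdm12 was the lowest of the ARC factors. At 2 days it measured 0.249, 5.60 and 8.34 CPM in kept vehicle samples (1, 26 and 41 counts) and 6.49, 2.36, 4.29 and 17.9 CPM in kept Cort samples. The left-out samples held 13.2 and 0.570 CPM with vehicle and 9.42 CPM with Cort, so that samples of 1 group differed by more than the groups did. The log2 fold change was 0.70 (SE 0.9001, adjusted p = 0.951), and it turned to -0.10 without Cort sample C10. In the 4 week dataset its levels were 22.0, 1.21 and 4.93 CPM with vehicle and 1.86, 6.67, 1.55 and 8.61 CPM with Cort, and Prdm12 was at 0 in the 3 left-out samples. The log2 fold change of -1.01 (SE 1.38, adjusted p = 0.990) rested on vehicle sample C02, without which it was 0.61.

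Bsx, needed for Npy and Agrp expression, had the lowest p of the factors at 2 days. It measured 67.7, 39.4 and 30.3 CPM in kept vehicle samples and 22.7, 44.8, 14.8 and 28.2 CPM in kept Cort samples. Cort samples C01, C06 and C10 lay under the vehicle range and C03 within it, and the log2 fold change was -0.73 (SE 0.385, interval -1.53 to 0.08, unadjusted p = 0.0736, adjusted p = 0.865). It was -0.34 without vehicle sample C02 and -1.06 without Cort sample C03. The left-out vehicle samples lay far apart, at 16.4 and 55.9 CPM, and the left-out Cort sample was at 23.1 CPM. In the same samples Agrp, whose annotation extends over other genes, rose by a log2 fold change of 1.32 (SE 0.203, adjusted p = 0.0103), while Npy, at 0.49 (SE 0.147, adjusted p = 0.521), did not pass. The Agrp call was kept in 6 of the 7 edgeR fits that left out 1 sample. It was also kept in 5 of 7 other alternatives, DESeq2 among them. It was lost without vehicle sample C02 (1.13, adjusted p = 0.147). With all 10 samples it was lost by edgeR (0.81, adjusted p = 0.923) and by limma voom (1.22, adjusted p = 0.129). At 4 weeks Bsx measured 6.43, 33.4 and 16.6 CPM with vehicle and 24.96, 25.2, 16.5 and 5.53 CPM with Cort. The groups overlapped fully (log2 fold change -0.07, SE 0.962, adjusted p = 0.996). Leaving out 1 sample gave -0.47 (without vehicle C02) to 0.65 (without vehicle C03), and the estimate was 0.72 with all 10 samples, among which the left-out vehicle samples were at 0.918 and 6.29 CPM and the Cort sample at 33.7 CPM. There Npy fell by 2.31 on the log2 scale (SE 0.414, adjusted p = 0.0966), and Agrp was at -0.53 (SE 0.366, adjusted p = 0.990). The Npy call was lost in 6 of the 7 edgeR fits that left out 1 sample (all but that without Cort C07), at log2 fold changes of -2.50 to -2.12. With all 10 samples it was lost by edgeR (-1.34, adjusted p = 0.991) and by limma voom (-2.20, adjusted p = 0.426). It was kept in 5 of 7 other alternatives, DESeq2 among them (-2.32, adjusted p = 1.1e-04).

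Dlx1, the factor of GABAergic neurons, measured 49.0, 67.9 and 72.6 CPM with vehicle and 69.6, 40.7, 49.5 and 58.9 CPM with Cort in the kept 2 day samples. The left-out samples lay at 38.1 and 51.9 CPM with vehicle and at 45.5 CPM with Cort, and the log2 fold change was -0.20 (SE 0.269, adjusted p = 0.954), between -0.35 and -0.08 when 1 kept sample was left out. Vehicle and Cort samples covered the same range. At 4 weeks the levels were 28.7, 59.9 and 30.9 CPM with vehicle and 27.4, 13.3, 38.7 and 20.6 CPM with Cort (log2 fold change -0.69, SE 0.724, adjusted p = 0.990), and the estimate was -0.26 without vehicle sample C03. The left-out vehicle samples differed from each other more than the groups did, at 6.43 and 59.95 CPM, and the left-out Cort sample was at 53.5 CPM.

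Sox14 was the one factor whose kept groups were separate, at 4 weeks. At 2 days every sample held counts of it, with 9.70, 8.62 and 19.5 CPM in kept vehicle samples, 7.34, 23.9, 16.4 and 16.7 CPM in kept Cort samples, and 3.24, 5.70 and 10.0 CPM in the left-out vehicle samples C07 and C09 and Cort sample C08. The groups overlapped, with a log2 fold change of 0.35 (SE 0.518, adjusted p = 0.962) that lay between 0.10 (without Cort C03) and 0.82 (without vehicle C05). At 4 weeks 4 of the 5 vehicle samples were at 0 and vehicle sample C03 held 4 counts (1.61 CPM). The kept Cort samples C07, C08, C09 and C10 held 10, 137, 34 and 40 counts, or 2.06, 32.6, 17.5 and 12.3 CPM. The kept groups were therefore separate, although C07 lay only just above vehicle C03. The left-out Cort sample C06 was at 0 in a library of 3646528 counts, where 3 counts would be 0.944 CPM, so the groups overlapped over all 10 samples.

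Sox14 at 4 weeks passed edgeR's filter through its Cort samples only, and it failed the filter when all 10 samples were used and when Cort sample C08, C09 or C10 was left out. The fitted log2 fold change of 4.80 (adjusted p = 0.990) is therefore a description set against a vehicle group near 0, and it ranged from 4.24 to 8.71 over the alternatives that could be fitted, with a lowest adjusted p of 0.201.

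Nr5a1, the marker of the ventromedial nucleus, was near the detection limit. At 2 days it had 4, 0 and 12 counts in kept vehicle samples (up to 2.44 CPM), 1, 0, 4 and 0 in kept Cort samples, and 8, 0 and 6 in the left-out samples. At 4 weeks 1 count in Cort sample C10 (0.307 CPM) was the only one in 10 samples. Fezf1, expressed in the same nucleus, measured 1.24, 0.216 and 4.88 CPM with vehicle and 0.171, 6.74, 15.0 and 2.78 CPM with Cort in the kept 2 day samples, and 1.82, 0 and 0.819 CPM in C07, C09 and C08. Cort sample C06, the highest, was not the highest for Nr5a1, and the log2 fold change of 1.54 (SE 1.13, interval -0.82 to 3.90) did not pass (adjusted p = 0.922). Fezf1 passed the count filter mainly through its Cort samples, so this log2 fold change is a description only. It was 0.57 without Cort sample C06 and 3.08 without vehicle sample C05. With all 10 samples Fezf1 did not pass the filter and no estimate was fitted. At 4 weeks Fezf1 had 22 counts in Cort sample C10 (6.76 CPM) and 0 in the other 9 samples.

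Sim1, the paraventricular factor, stood out in single 2 day samples. Vehicle sample C05 held 30 counts (6.10 CPM) and Cort sample C06 16 counts (2.86 CPM), while the other 8 samples held 0 to 4 counts. At 4 weeks the only counts were 2 in vehicle sample C03 and 1 in Cort sample C09. For the members below edgeR's filter (Nr5a1 and Sim1 in both datasets, Fezf1 at 4 weeks) a 2-sided exact permutation test of mean CPM over the 7 kept samples gave p = 0.286 for Nr5a1 and 0.686 for Sim1 at 2 days. At 4 weeks the exact test gave p = 0.857 for Sim1 and 1 for the other 2 genes, and all 5 adjusted values were 1. With 3 samples against 4 the smallest p possible is 0.0571. Over all 10 samples, where the smallest p possible is 0.00794, the exact test gave p = 0.325 for Nr5a1 and 0.690 for Sim1 at 2 days. It gave no lower p at 4 weeks. These tests rest on few samples and few counts, so no conclusion is drawn from them.

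Summed over the 4 neighbour factors, their share of all counts of the 10 factors was 1.82% to 9.62% in the 2 day samples, with a mean of 3.67% ± 2.32 (SD, n = 3) in kept vehicle and 5.63% ± 3.31 (SD, n = 4) in kept Cort samples. The highest 2 day shares were in Cort sample C06 (9.62%, 95% Clopper-Pearson interval 8.37% to 10.98%), Cort sample C03 (6.85%) and vehicle sample C05 (6.33%, interval 5.41% to 7.34%). At 4 weeks it was 0 in 5 samples, namely vehicle C01, C02, C04 and C05 and Cort C06, where a floor of 3 counts allows shares of up to 0.287% to 1.23% and the upper Clopper-Pearson limits are 0.352% to 1.51%. It was 0.681% in vehicle C03, 0.558% in Cort C07, and 9.81%, 6.26% and 6.60% in Cort C08, C09 and C10. Sox14 provided 137 of the 137 neighbour counts in C08, 34 of 35 in C09 and 40 of 63 in C10. These shares are not corrected for exon length, and the intervals hold counting error alone, because amplified reads are not separate molecules.

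**Figure D3:**
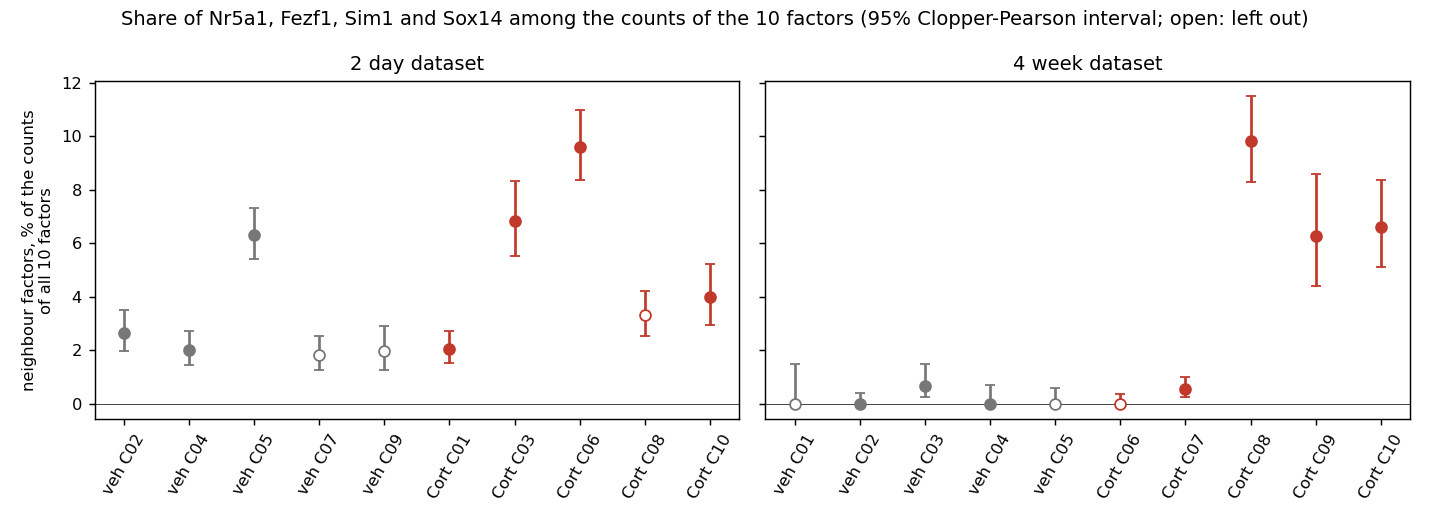
Counts of Nr5a1, Fezf1, Sim1 and Sox14 as a percent of the counts of all 10 factors (y axis) in each sample (x axis), with 95% Clopper-Pearson intervals and open points for samples left out by the study. At 2 days the share is 1.82% to 9.62% in both groups, and at 4 weeks 3 Cort samples lie between 6.26% and 9.81% while the other 7 samples lie at or below 0.681%.

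Other genes known from the nuclei around the ARC gave no call at 4 weeks, beside 0.0446% of all genes tested. Of 13 such genes 5 were tested and 0 were called, and their summed level was 111 to 244 CPM in kept vehicle and 161 to 338 CPM in kept Cort samples. Most of this sum was Gda, at 30.3 to 220.1 CPM over the 10 samples with a median of 132 CPM. At 0 in all 10 samples were 4 of the 13 genes. Among these were Hcrt and Pmch, which define orexin and melanin-concentrating hormone neurons of the lateral hypothalamus. Avp and Oxt did not exceed 18.0 and 9.76 CPM. Other genes of the list were present, with Ppp1r17 above 3 counts in 10 samples (2.52 to 65.9 CPM). Slit3 was above 3 counts in 8 samples (up to 19.6 CPM) and Trh in 7 (up to 28.3 CPM). Cbln1, enriched in the ventromedial nucleus, was highest in Cort sample C10 (75.9 CPM), the only sample with Fezf1, and lay between 0 and 15.2 CPM elsewhere. At 2 days Avp was 326 and 290 CPM in Cort samples C06 and C08 and at most 48.2 CPM in the other 8. Of the 13 genes 9 were tested there, and 0 were called (Avp log2 fold change 2.13, adjusted p = 0.621, and Oxt 1.46, adjusted p = 0.543). The part of these differences between samples in the values of the neighbour factors was not tested.

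**Figure D4:**
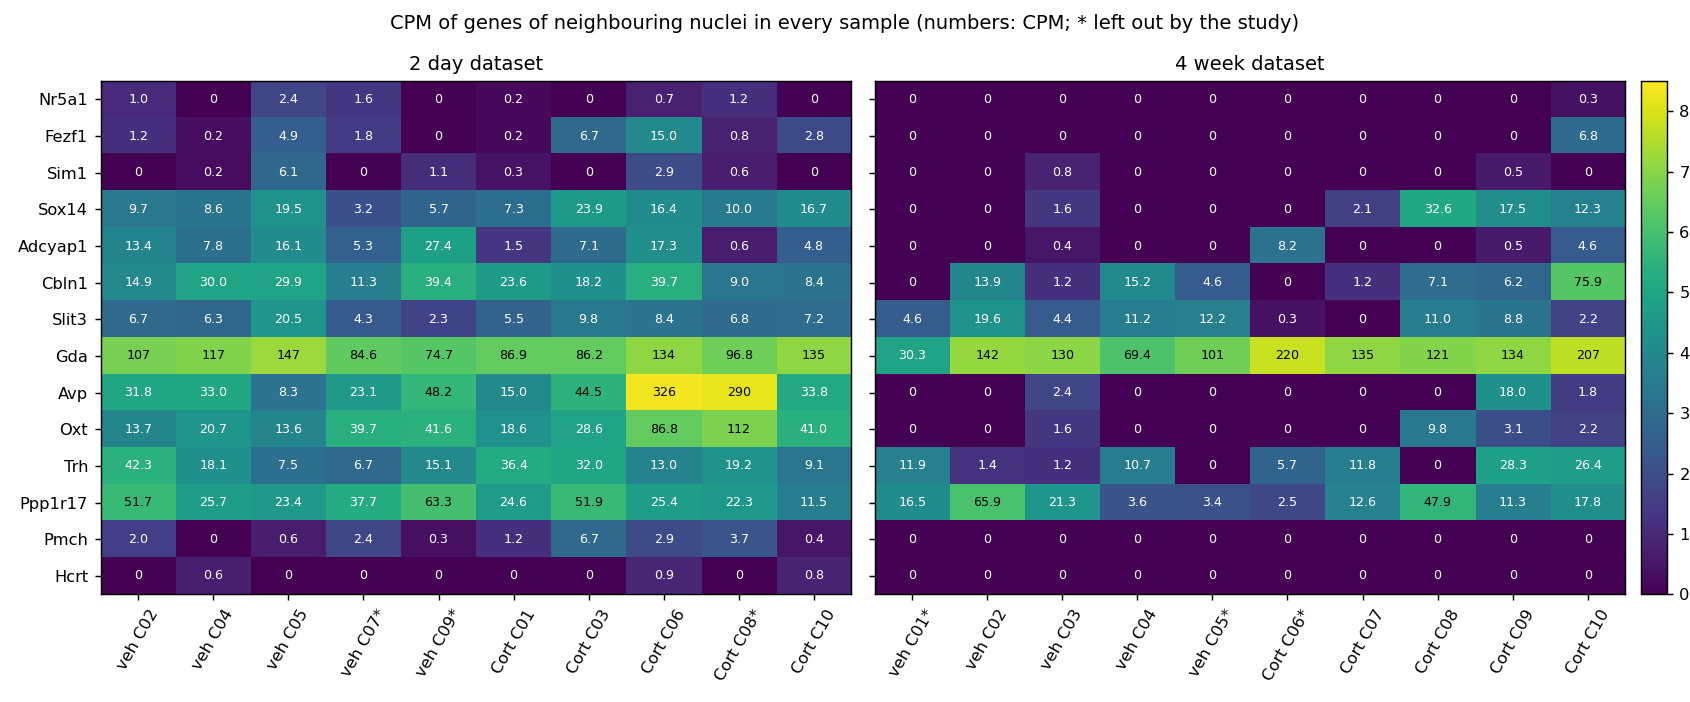
CPM of the 4 neighbour factors and 10 other genes of neighbouring nuclei (y axis) in every sample, with colour showing log2(CPM + 1), the number in each cell giving CPM, and an asterisk marking samples left out by the study. Avp reaches 326 CPM in 2 day Cort C06, Fezf1 and Cbln1 are highest at 4 weeks in Cort C10, and Sox14 in the 4 week dataset is found in 4 Cort samples and, at 1.61 CPM, in vehicle C03.

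No factor in the wider lists was called, beside 0.065% of all genes tested at 2 days and 0.0446% at 4 weeks. At such shares, 0 calls in lists of this size show nothing particular to them. Of 16 other factors of the ARC and tuberal region 13 were tested at 2 days and 11 at 4 weeks, and 0 were called in either. Otp, needed for Agrp and Sst neurons, measured 58.8 to 231 CPM over the 2 day samples (log2 fold change 0.30, adjusted p = 0.865). Nhlh2, a bHLH factor of Pomc neurons, had estimates of -0.98 at 2 days and -2.47 at 4 weeks (adjusted p = 0.865 and 0.990). Neurog3, active in the embryo, was at 0 in all 20 samples. Of 17 other factors of neighbouring regions 7 and 3 were tested and 0 were called. The lowest p in that list belonged to Lhx5 at 2 days (log2 fold change -2.04, adjusted p = 0.782) and to Lhx1 at 4 weeks (3.65, adjusted p = 0.990). Lhx1 was highest in Cort sample C09, at 78.8 CPM, a sample in which Sox14 was also high, and it was 3.33 and 7.07 CPM in C08 and C10. Of 12 partners and cofactors all were tested at 2 days and 9 at 4 weeks, and 0 were called. Meis1, a partner of homeodomain factors, had the lowest p of these at 4 weeks (log2 fold change 3.93, adjusted p = 0.990).

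In cell type lists, 1 of 6 oligodendrocyte markers was called at 2 days, beside 0.065% of all genes tested. This was Mobp, which rose (log2 fold change 1.72, SE 0.226, adjusted p = 0.00324 by edgeR). Mobp was not called by edgeR with all 10 samples (0.82, adjusted p = 0.936). Limma voom with quality weights on all 10 called it (1.51, adjusted p = 0.0364). The call was kept in 7 of 7 edgeR fits that left out 1 sample. The summed level of the 6 markers was 229 to 269 CPM in kept vehicle and 308 to 461 CPM in kept Cort samples. Of single genes tested, 6.63% also had separate groups in these 7 samples. The sum overlapped between groups over all 10, at 229 to 536 and 308 to 620 CPM. The part of this difference in the values of the factors was not tested. None of 5 neuronal markers was called. Their summed level was 2977 to 3451 CPM in kept vehicle and 2843 to 3460.1 CPM in kept Cort samples at 2 days. At 4 weeks it was 2273 to 2704 and 2707 to 3192 CPM, so the kept groups met without overlapping. Of single genes tested, 6.53% also had kept groups that did not overlap, so this is not read as a result. Over all 10 samples the 4 week vehicle range reached 3035 CPM and the groups overlapped. Snap25 gave most of this sum, with a median of 2251 CPM at 4 weeks. The summed level of the 6 ARC factors was 438 to 488 CPM in kept vehicle and 329 to 469.8 CPM in kept Cort samples at 2 days, and 229.7 to 352 and 270.0 to 368 CPM at 4 weeks. Of 5 markers of the pituitary and pars tuberalis, 3 were at 0 in all 10 samples at 4 weeks. At 2 days 0 of the 5 were at 0 throughout. Their summed level there was 1.49 to 16.8 CPM in kept vehicle and 0.893 to 37.0 CPM in kept Cort samples. Tanycyte, ependymal, astrocyte, microglial and endothelial lists held 0 calls by edgeR, beside 0.065% of all genes at 2 days and 0.0446% at 4 weeks. DESeq2 called 1, Dio2 at 2 days. By edgeR there were 2 unadjusted p below 0.05 in tanycyte markers, namely Dio2 at 2 days (log2 fold change 1.36) and Gpr50 at 4 weeks (-1.04), and 1 in Pecam1 of endothelial cells at 4 weeks (4.51). Of all genes 5.97% had such a p at 2 days and 4.91% at 4 weeks. It was also found for Syt1 of the neuronal markers at 2 days (-0.30). In the lists above it was found, among others, for Oxt, Avp and Lhx5 at 2 days and for Lhx1 and Meis1 at 4 weeks.

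Whether Cort acted differently on a factor at 4 weeks than at 2 days was tested as an interaction over the 14 kept samples. Of the 8 factors tested 0 were called, beside 0.0157% of 12777 genes, and DESeq2 also called 0, beside 0.308%. Sox14 (4.48, SE 1.54, unadjusted p = 0.00842, adjusted p = 0.714) and Tbx3 (0.87, SE 0.380, unadjusted p = 0.0319, adjusted p = 0.746) had an unadjusted p below 0.05, which 6.49% of genes had. The value for Sox14 again rests on 4 week vehicle samples near 0.

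The vehicle samples of both datasets were compared in the same fit. Of the 8 factors 0 were called by edgeR, beside 1.33% of genes, and Sox14 and Tbx3 had an unadjusted p below 0.05, against 12.1% of genes. Sox14 was lower at 4 weeks by a log2 fold change of -4.34 (SE 1.28, adjusted p = 0.143) and Tbx3 by -0.92 (SE 0.290, adjusted p = 0.170). As those vehicle samples held 0, 4 and 0 counts of Sox14, its fitted size is no measure of a fold. The call depended on the method. DESeq2 called both (5.28% of genes called) and edgeR over all 20 samples called Sox14 (6.17% of genes called). Isl1 (0.45), Nkx2-1 (0.03), Bsx (-1.13), Prdm12 (1.14) and Dlx1 (-0.51) had adjusted p between 0.564 and 0.989. For Fezf1, whose 4 week vehicle samples were all at 0, no fold is given. The vehicle groups serve in all these contrasts, so the estimates of Sox14 in the 4 week comparison, the interaction and the vehicle comparison are not independent.

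The genes whose level followed a member most closely over the 10 samples at 2 days were Kctd3 for Tbx3 (Spearman 0.952), Gtf2h5 for Isl1 (0.952), Nudt5 for Nkx2-1 (0.952), Ing1 for Bsx (0.964) and Hspa8 for Dlx1 (0.939). Each was the top of 9539 genes, and the 10 points share the differences in treatment and depth between the libraries. At 4 weeks the same pairs had correlations of -0.55, -0.39, 0.66, -0.09 and -0.20 over 10 samples.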

How the data were processed

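RNA-seq was performed on laser-captured ARC, with separate mice per sample according to the study's methods. The authors mapped single-end reads to GRCm38 with Rsubread, and the gene counts they deposited were made with featureCounts, with annotation release and strand setting not given in the sources used here. The deposited signal values, which the authors obtained from the counts of the 7 kept samples by scaling with size factors of DESeq2, were used only for their gene symbols. Of the 7 columns of these values in the 2 day dataset, 5 held the counts of a sample of another name (0 of 7 at 4 weeks). The authors' columns of fold changes, test statistics and p-values were not used. Column names carry no replicate number of the labels, so groups followed the sample table of the study, and the samples left out followed its principal component plot.

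The raw counts were analysed with R 4.3.3, edgeR 4.0.16, limma 3.58.1, DESeq2 1.42.0, and with scipy 1.17.1, matplotlib 3.10.9, numpy 2.4.6 and pandas 2.3.3 in Python 3.11.15. Genes passing filterByExpr were scaled by TMM and compared with the 2-sided edgeR quasi-likelihood test over the whole table, with Benjamini-Hochberg adjustment and a threshold of 0.1. Members below the filter were compared with a 2-sided exact permutation test of mean CPM. CPM used TMM factors over the 10 samples of a dataset, and CPM per kb used the union of GENCODE M21 exons. A sample with at most 3 counts was taken as at the floor. Tests measure the spread between samples, and the pipeline was tested on simulated data. The 10 members, the other lists and the tests were chosen with earlier results of these data known. All 10 members are named. From other lists only genes with adjusted p below 0.1 or, failing these, those among the 3 lowest p per list and dataset are named, together with the most correlated gene of each member that had at least 10 counts in all 2 day samples, of which 1 is not reported here. Other genes (Npy and Agrp where not called, Cbln1, Gda, Snap25, Hcrt, Pmch, Ppp1r17, Slit3, Trh, Avp and Oxt at 4 weeks, Neurog3) were named after their values were seen. Alternatives were DESeq2 size factors, upper quartile scaling, no count filter, 10 counts in every sample, the DESeq2 Wald test, all samples, limma voom with quality weights and leaving out each sample.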

Additional observations from a re-analysis of the deposited data

Results flagged for a closer look

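In groups of 5 samples, the highest or lowest value was compared with the nearest other value by Dixon's ratio (critical value 0.71 for 5 samples). Of 38 groups of 5 samples 10 exceeded it, and 7 of the 10 were in neighbour factors with counts in few samples. In 5 of these 7 the other 4 samples were at 0, so that the ratio is 1 whatever the value, and their number cannot be set against the 1 in 20 groups that chance gives. Tbx3 was 277 CPM in 4 week Cort sample C07, with the other 4 between 118 and 153 CPM. Isl1 was 96.8 CPM in 2 day vehicle sample C07, which the study left out, against 51.1 to 60.7 CPM. Prdm12 was 22.0 CPM in 4 week vehicle sample C02, against 0 to 4.93 CPM. Nr5a1 was 0.307 CPM (1 count) and Fezf1 6.76 CPM (22 counts) in 4 week Cort sample C10, and both were at 0 in the other Cort samples. Sim1 was 2.86 CPM in 2 day Cort sample C06 and 6.10 CPM in 2 day vehicle sample C05, with the others of each group at most 0.614 and 1.14 CPM. At 4 weeks Sim1 was 0.804 CPM (2 counts) in vehicle sample C03 and 0.515 CPM (1 count) in Cort sample C09, and at 0 in the others of each group. Sox14 was 1.61 CPM (4 counts) in 4 week vehicle sample C03 and at 0 in the other 4 vehicle samples.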

How the results depend on the processing

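No paired analysis was possible because the columns of the count tables carry none of the replicate numbers in the labels. The study also describes no pairing of mice between groups, so these numbers are not known to mark pairs. Under every alternative 0 members were called with Cort at 2 days, at 4 weeks or in the interaction, with lowest adjusted p-values of 0.661, 0.201 and 0.217. In the vehicle comparison between datasets, where edgeR called 0 members, 1 was called with upper quartile scaling (Tbx3), 1 with 10 counts in every sample (Tbx3), 2 with DESeq2 (Tbx3 and Sox14), 1 with all samples (Sox14) and 1 with limma voom (Sox14). Leaving out a sample gave 0 to 2 calls, with 1 (Sox14) without 4 week vehicle sample C03 and 2 (Tbx3 and Sox14) without 4 week Cort sample C07. Over all genes the DESeq2 calls were 54 at 2 days, 43 at 4 weeks, 39 in the interaction and 642 in the vehicle comparison, where edgeR gave 8, 5, 2 and 170, and edgeR over all samples gave 2, 1, 0 and 772. The cause of these differences was not tested.

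Estimates that reversed were all without a call. With all samples the log2 fold change was 0.051 for Tbx3 at 2 days, 0.72 for Bsx at 4 weeks and -0.0064 for Nkx2-1 in the vehicle comparison. Limma voom gave 0.33 for Bsx at 4 weeks, -0.19 for Nkx2-1 in the vehicle comparison and -0.065 for Fezf1 in the interaction, and upper quartile scaling gave -0.078 for Nkx2-1 in the vehicle comparison. Leaving out each sample gave -0.10 to 1.38 for Prdm12 at 2 days, -0.87 to 0.10 for Nkx2-1, -0.47 to 0.65 for Bsx and -1.52 to 0.61 for Prdm12 at 4 weeks. In the interaction the range was -0.56 to 0.40 for Nkx2-1 and -1.54 to 5.12 for Fezf1, which turned without 4 week Cort sample C10, its only 4 week sample with counts. As its 4 week vehicle samples were all at 0, these values of Fezf1 depend on the prior count and measure no difference. In the vehicle comparison it was -0.51 to 0.45 for Nkx2-1 and -0.49 to 1.81 for Prdm12. The mean summed level of neighbour factors over kept samples lay between 18.7 and 23.2 CPM in the 2 day and between 6.98 and 12.4 CPM in the 4 week dataset when each sample was left out, with the lowest without Cort sample C08. Few counts limit the precision for Nr5a1, Sim1 and, at 4 weeks, Fezf1 and the vehicle samples of Sox14.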
